A study of Capra hircus with 6 samples.

Results

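Connexins are the proteins of gap junctions, and the transcripts of 5 connexin genes (GJA1, GJA4, GJA5, GJB2 and GJC1) and of the pannexin gene PANX1 were followed in the ovaries of 6 goats. The 6 genes were chosen by name, as connexins and a pannexin of the follicle, out of 17504 genes with an expression value. Earlier results of these data were known at that choice. Of 24 connexin and pannexin genes sought by symbol, 18 were found in the tables, and the 12 outside the chosen 6 are given more briefly below.

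Whole-ovary RNA was sequenced from 3 Tibetan goats (Capra hircus), a breed the labels call non-prolific, and 3 Jintang black goats, a breed they call prolific. All 6 were sampled in the follicular phase, when follicles grow towards ovulation, and no treatment, age or housing is given in the labels. The study asked which ovarian transcripts differ between the breeds. Each library is 1 goat, named here by breed and by the goat's number in the labels, and values are FPKM, a fragment count divided by transcript length and by the size of the library.

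A connexin channel joins the cytoplasm of neighbouring cells and lets ions and small molecules such as cyclic nucleotides and metabolites pass. In the follicle such channels link granulosa cells to each other and, through fine projections, to the oocyte, and cyclic GMP that reaches the oocyte this way holds it in meiotic arrest until the luteinizing hormone surge. Connexins also couple endothelial and smooth muscle cells of blood vessels. Pannexins are related in shape, but PANX1 works mainly as a channel to the outside of the cell, through which ATP is released.

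The summed FPKM of a library ran from 602255 to 682801. The spacing of low values put the depths of the libraries within 1.11 times of each other, while absolute depth is unknown. The inhibin subunit INHA, an ovarian granulosa cell product, was found in all 6 libraries (9.56 to 1194 FPKM), and FOXL2, a transcription factor of granulosa cells, at 1.75 to 16.04 FPKM. FOXJ1, a regulator of ciliated epithelium, was listed at 0 in all 6 libraries. Since whole ovaries were used, more cells of a type and more RNA per cell cannot be told apart in any value below. Of the 8 genes listed for heat shock and tissue handling, 7 were lower in Jintang than in Tibetan ovaries at an unadjusted p under 0.05, where 3.35% of all genes were, and 0 passed the limma threshold used below. Their summed level did not overlap between the breeds (1049 to 1571 FPKM in Tibetan ovaries and 338 to 453 FPKM in Jintang ones). Its part in the breed values below was not tested.

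The members spanned a wide range of levels. FPKM is scaled by annotated transcript length, so levels of different genes can be set beside each other, but only roughly. The annotation used is not named. Averaged over the 6 ovaries, GJA1 stood at 223 FPKM, GJA4 at 92.9, GJA5 at 22.7, GJC1 at 10.8, PANX1 at 8.22 and GJB2 at 1.60 FPKM. All 6 passed the filter on low values (1 FPKM or more in at least 3 libraries), and of the 13067 genes that did so 2.58% had a higher mean than GJA1. Neighbours in the order of means were not fully separated. GJA1 exceeded GJA4 in 5 of 6 ovaries, GJA4 exceeded GJA5 in 5, GJA5 exceeded GJC1 in 4 and GJC1 exceeded PANX1 in 5. PANX1 exceeded GJB2 in all 6.

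**Figure D1:**
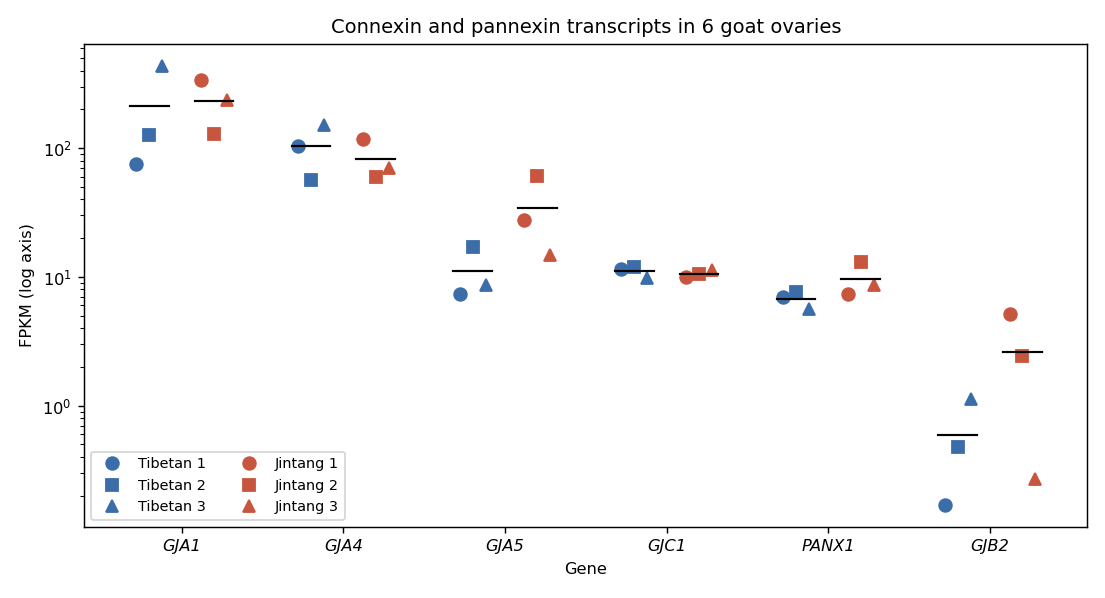
FPKM (log axis) of the 6 genes in each ovary, with Tibetan goats in blue, Jintang goats in red, and the mean of each breed as a black line. GJC1 sits between 9.73 and 11.85 FPKM in all 6 ovaries, while GJA1 spans 74.9 to 435 FPKM, and the breeds overlap in every gene.

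GJA1 (GeneID 102191242) encodes the main connexin of granulosa cells, and it is also made by stromal, muscle and many other cells. It stood at 74.9, 126 and 435 FPKM for Tibetan 1, 2 and 3 against 338, 129 and 235 FPKM for Jintang 1, 2 and 3. The highest and the lowest ovary were therefore both Tibetan, 5.81-fold apart, and the Jintang values lay within the Tibetan range. The breed means were 212 ± 195 FPKM for Tibetan and 234 ± 105 FPKM for Jintang ovaries (SD, n = 3 each). On the log2(FPKM + 1) scale, where the change of low genes is understated, Jintang minus Tibetan was 0.44 (SE 0.65, limma adjusted p = 0.881). This difference turned to -0.11 without Tibetan 1, the lowest ovary. Without Tibetan 3, the highest, it was 1.15 (unadjusted p = 0.0410, limma adjusted p = 0.606).

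Granulosa cell markers differed among themselves in the ovary where they peaked. INHA was highest in Tibetan 3 (1194 FPKM), as GJA1 was, and lowest in Jintang 1 (9.56 FPKM). INHBA, an activin and inhibin subunit, was highest in Jintang 1 (122 FPKM), which was next highest for GJA1, and lowest in Tibetan 3 (15.6 FPKM). INHBB, another such subunit, ran from 19.4 to 85.8 FPKM and was highest in Tibetan 3. Jintang 1 was also next highest for FSHR, the follicle-stimulating hormone receptor (5.94 FPKM), FST (46.1 FPKM) and NR5A2 (15.9 FPKM). Tibetan 3, with the most GJA1, was next lowest for FSHR, FST and NR5A2. The other listed markers were low in Jintang 1. CYP19A1 was lowest there (0.27 FPKM) and highest in Tibetan 3. FOXL2 was next lowest there (2.49 FPKM) and lowest in Tibetan 3 (1.75 FPKM). Jintang 1 had 1.4 FPKM of AMH and 0.82 FPKM of HSD17B1, where Tibetan 3 had 0.95 and 0.55 FPKM. The 10 listed granulosa markers summed to 193 to 1344 FPKM in Tibetan ovaries and to 233 to 370.2 FPKM in Jintang ones, with FSHR listed at 0 in Tibetan 1. Their part in the GJA1 values was not tested.

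GJA4 (GeneID 102185334) encodes the connexin known in the mouse for the junctions between oocyte and granulosa cells, and it is also a connexin of arterial vessels. It stood at 103, 56.8 and 150.0 FPKM for Tibetan 1, 2 and 3 against 119, 59.4 and 69.6 FPKM for Jintang 1, 2 and 3. Tibetan 3 was again highest and Jintang 1 next, and the breeds overlapped over most of their range. The means were 103 ± 46.6 FPKM in Tibetan ovaries and 82.5 ± 31.7 FPKM in Jintang ones (SD, n = 3 each), with a log2 difference of -0.28 (SE 0.42, limma adjusted p = 0.884). Without Tibetan 3 the difference was 0.042.

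The oocyte markers are given beside GJA4. Jintang 1, with GJA4 at 119 FPKM, had the highest sum of the 10 listed (38.4 FPKM), most of it from KIT. Tibetan 3, with the most GJA4, had ZP3 at 0.84 FPKM and the next highest level of the oocyte growth factor GDF9, after Tibetan 2 (3.42 FPKM). Tibetan 1, with GJA4 at 103 FPKM, had 5 of 10 oocyte markers listed at 0 (BMP15, ZP4, FIGLA, NOBOX and DAZL) and the egg-coat gene ZP3 at 0.13 FPKM. Jintang 3 and Tibetan 2 had the most ZP3 (10.4 and 7.24 FPKM), with GJA4 at 69.6 and 56.8 FPKM. ZP4, another egg-coat gene, stayed at or under 4.88 FPKM, and KIT, which is found in oocytes and in other ovarian cells, ran from 3.06 to 31.1 FPKM. The oocyte list summed to 3.97 to 27.6 FPKM in Tibetan ovaries and to 32.6 to 38.4 FPKM in Jintang ones, and KIT alone gave 31.1 and 28.3 FPKM of it in Jintang 1 and 2. The part of oocytes in the GJA4 values was not tested. GJA4 was between 6.66 and 794 times the level of ZP3 within a library.

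GJA4 is also found in vessel walls. Smooth muscle and pericyte markers summed to 3974 to 7725 FPKM in Tibetan ovaries and to 2015 to 7652 FPKM in Jintang ones, none of the 8 being at 0. The leading ones were the contractile genes ACTA2 (936 to 3698 FPKM), TAGLN (696 to 2573 FPKM) and MYH11 (113 to 1019 FPKM). The ratio of GJA4 to ACTA2 varied 4.29-fold over the ovaries, and the ratio of GJA4 to the endothelial cadherin CDH5 ran from 1.02 to 8.16. GJA4 itself varied 2.64-fold. The part of these cell types in the GJA4 values was not tested.

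GJA5 (GeneID 102189449), a connexin of arterial endothelium and of the heart, had the largest log2(FPKM + 1) difference between breeds among the members. With 0.1 added to the FPKM in place of 1, that of GJB2 was larger (1.56 against 1.49 for GJA5). It stood at 7.39, 17.1 and 8.71 FPKM for Tibetan 1, 2 and 3 against 27.7, 60.4 and 14.8 FPKM for Jintang 1, 2 and 3. Jintang 1 and 2 lay above all Tibetan ovaries, but Jintang 3 lay below Tibetan 2, so the breeds overlapped. The means were 11.07 ± 5.27 FPKM in Tibetan ovaries and 34.3 ± 23.5 FPKM in Jintang ones (SD, n = 3 each), a log2 difference of 1.41 (SE 0.52, 95% interval 0.22 to 2.60). The unadjusted p was 0.0257, and the difference did not pass the test over all genes (limma adjusted p = 0.743). With single libraries left out the difference stayed positive, from 0.90 without Jintang 2 to 1.88 without Jintang 3. The unadjusted p was then above 0.05 in 4 of the 6 cases (without Tibetan 1, Tibetan 3, Jintang 1 or Jintang 2).

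Some endothelial markers ranked the ovaries as GJA5 did. PECAM1, CDH5 and TEK, which are adhesion and receptor genes of endothelium, had exactly its order, from Jintang 2 through Jintang 1, Tibetan 2, Jintang 3 and Tibetan 3 down to Tibetan 1. These 3 were singled out after their values were seen. The order was shared by 40 of the other 13066 genes tested (0.306%), and 3 of the 7 endothelial markers matched were among the 40. PECAM1 stood at 12.6, 40.3 and 18.8 FPKM for Tibetan 1, 2 and 3 against 82.0, 93.7 and 24.4 FPKM for Jintang 1, 2 and 3. The ratio of GJA5 to PECAM1 kept between 0.337 and 0.644, a 1.91-fold range where GJA5 itself had an 8.17-fold range. Against CDH5 the ratio ran from 0.432 to 0.631 in 5 ovaries and reached 1.04 in Jintang 2. Against VWF, which did not share the order, it ran from 0.0916 to 1.04, an 11.3-fold range.

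The match did not extend to all vascular genes. VWF, the clotting factor of endothelium, was highest in Jintang 1 (130.4 FPKM), and KDR, a receptor for vascular endothelial growth factor, was highest in Tibetan 2 (54.3 FPKM). The 7 endothelial markers, none at 0, summed to 162 to 259 FPKM in Tibetan ovaries and to 179 to 360 FPKM in Jintang ones. Of them 6 had a positive breed difference, where 41% of all genes had one, 2 were higher at an unadjusted p under 0.05, where 2.82% of all genes were, and 0 passed the limma threshold. The 6 markers of arterial endothelium summed to 27.0 to 43.5 FPKM and 36.6 to 67.8 FPKM, led by the Notch ligand DLL4 (8.45 to 16.9 FPKM), the ephrin EFNB2 (4.37 to 17.3 FPKM) and UNC5B, a netrin receptor (3.48 to 13.7 FPKM). EFNB2, UNC5B and HEY1 were highest in Jintang 2, as GJA5 was, while DLL4 was highest in Jintang 1, BMX in Tibetan 2 (3.46 FPKM) and NOTCH4 in Tibetan 3 (8.77 FPKM). Jintang 1 and 2, the ovaries with the most GJA5, also had the highest summed luteal and fibroblast markers, given below with GJB2. The part of endothelial or other cells in the GJA5 difference was not tested.

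**Figure D2:**
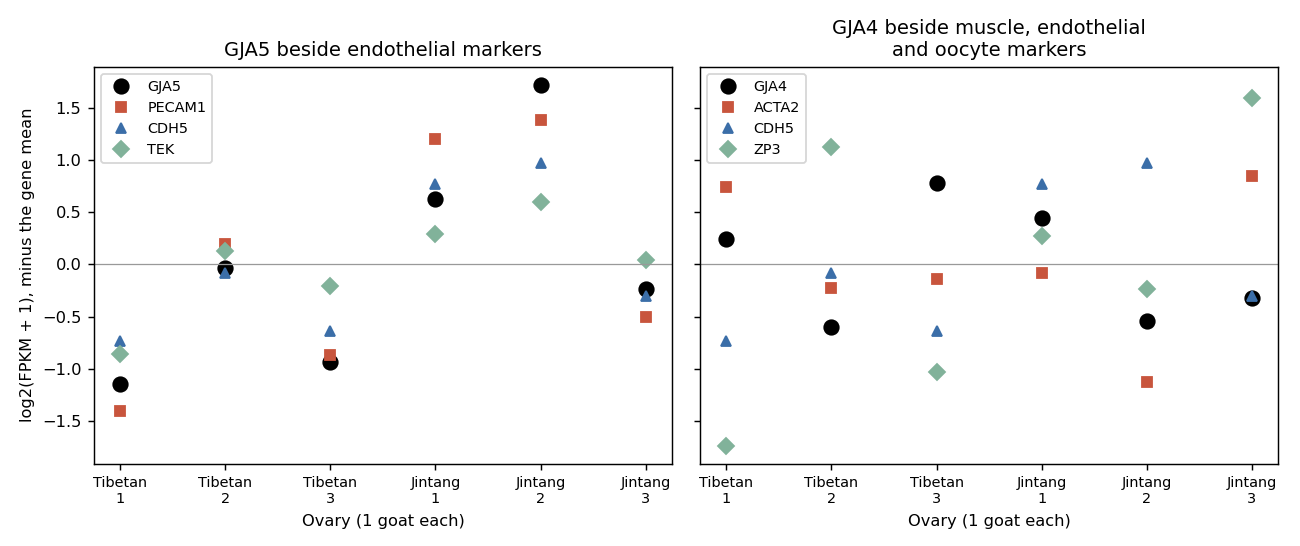
log2(FPKM + 1) minus the gene's own mean over the 6 ovaries, for GJA5 with PECAM1, CDH5 and TEK (left) and for GJA4 with ACTA2, CDH5 and ZP3 (right), 1 point per ovary. On the left the 4 genes share the order of the ovaries, with all 4 highest in Jintang 2 and lowest in Tibetan 1. The 3 markers there were singled out after their values were seen, and the other endothelial markers matched did not have this order. On the right GJA4 is highest in Tibetan 3, where ZP3 stood at 0.84 FPKM.

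GJC1 (GeneID 102185774), a connexin of smooth muscle and of the cardiac conduction system, was nearly flat. It stood at 11.6, 11.85 and 9.73 FPKM for Tibetan 1, 2 and 3 against 9.95, 10.5 and 11.3 FPKM for Jintang 1, 2 and 3. No ovary stood apart, the highest being 1.22-fold above the lowest. The means were 11.05 ± 1.15 and 10.6 ± 0.692 FPKM (SD, n = 3 each), with a log2 difference of -0.054 and a 95% interval of -0.62 to 0.51 (limma adjusted p = 0.961). The interval uses the variance that limma moderates towards that of other genes at a similar level, and not the spread of GJC1 alone. The sign turned after median-ratio scaling (0.064), under which the median of all genes went from -0.10 to 0.019. Relative to that median, GJC1 differed by 0.042 as deposited and by 0.044 after scaling.

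The spread of GJC1 over the ovaries was low among all genes. The SD of its log2(FPKM + 1) values was 0.109, and 0.666% of the genes tested had a smaller one. Among the 5445 genes whose mean was within 2-fold of its own, 0.826% had a smaller SD. GJA5 was at the other end with an SD of 1.06, above that of 94.0% of genes tested, followed by GJA1 (0.961, 91.8%) and GJB2 (0.936, 91.3%). GJA4 (0.570, 69.0%) and PANX1 (0.364, 37.3%) lay between. This order holds for log2(FPKM + 1), where the spread of low genes such as GJB2 is understated. In FPKM, GJB2 had the widest range of the members, 30.2-fold against 8.17-fold for GJA5 and 5.81-fold for GJA1. Among genes whose mean was within 2-fold of the member's own, 94.3% had a smaller SD than GJB2 and 86.1% a smaller SD than GJA1. The median SD of genes tested was 0.432.

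**Figure D3:**
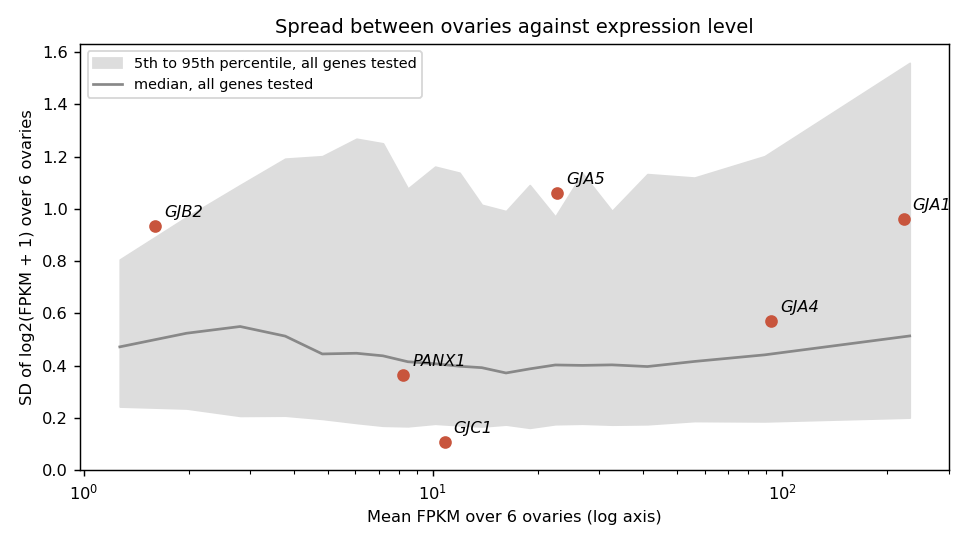
SD of log2(FPKM + 1) over the 6 ovaries against mean FPKM (log axis) for the 6 genes (red points), over the median (line) and the 5th to 95th percentile (grey) of all 13067 genes tested in 20 groups of like mean. GJC1 falls under the grey band at 0.109, and GJA5 (1.06) and GJB2 (0.936) lie just above its upper edge.

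GJB2 (GeneID 102171720), a connexin of epithelia, the liver and the inner ear, was the lowest of the 6. It stood at 0.17, 0.48 and 1.13 FPKM for Tibetan 1, 2 and 3 against 5.13, 2.43 and 0.27 FPKM for Jintang 1, 2 and 3. Jintang 1 and 2 were above all Tibetan ovaries, and Jintang 3 was below Tibetan 2 and 3. The means were 0.593 ± 0.490 and 2.61 ± 2.43 FPKM (SD, n = 3 each), a log2 difference of 0.95 (SE 0.58, limma adjusted p = 0.744). It passed the filter with just 3 libraries at 1 FPKM or more, and it was not tested when Tibetan 3, Jintang 1 or Jintang 2 was left out. Its difference was 1.57 without Jintang 3, and 1.56 with a pseudocount of 0.1 in place of 1.

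The 2 ovaries with the most GJB2 also had the highest summed luteal, fibroblast, endothelial and arterial endothelial markers, though not the highest value of each marker. Luteal markers summed to 334 to 2087 FPKM in Tibetan ovaries, 5989 and 17975 FPKM in Jintang 1 and 2, and 446 FPKM in Jintang 3. TIMP1 alone gave 5304 FPKM of the sum in Jintang 1. The leading luteal markers were the protease inhibitor TIMP1 (253 to 9215 FPKM), 3BHSD, a steroid dehydrogenase gene (28.1 to 4270 FPKM), and STAR, which carries cholesterol into mitochondria (8.91 to 3130.4 FPKM). Tibetan 3 exceeded Jintang 1 in 3BHSD (482 against 105 FPKM), in the lipoprotein receptor SCARB1 (156 against 114 FPKM) and narrowly in STAR, and it exceeded Jintang 2 in the prolactin receptor PRLR (2.03 against 1.35 FPKM). PTGFR, the prostaglandin receptor of luteal cells, stood at 274 and 259 FPKM in Jintang 1 and 2 and at most at 32.3 FPKM in the others, and it, SCARB1 and PRLR are named after their values were seen. Fibroblast and stroma markers summed to 2211 to 3985 FPKM in Tibetan ovaries and to 11128, 5965 and 3806 FPKM for Jintang 1, 2 and 3. That list was led by the fibrillar collagen genes COL3A1, COL1A1 and COL1A2, of which COL1A2 reached 3124 FPKM in Jintang 1. LUM was also highest in Jintang 1 and next highest in Jintang 2. DCN and PDGFRA were highest in Jintang 3 (1370 and 82.4 FPKM) and TCF21 in Tibetan 1 (208 FPKM). Jintang 2 had the lowest DCN (531 FPKM). Surface epithelium markers ran from 20.9 to 137 FPKM and from 18.4 to 258 FPKM. They were led by the keratin KRT18 (1.39 to 243 FPKM), MSLN, mesothelin (3.22 to 54.5 FPKM), and the keratin KRT7. KRT7 stood at 6.96, 4.51 and 10.7 FPKM for Tibetan 1, 2 and 3 against 0.80, 1.63 and 1.91 FPKM for Jintang 1, 2 and 3. KRT18, KRT7 and EPCAM (1.57 FPKM) were lowest in Jintang 1, the ovary with the most GJB2. The cadherin CDH1 was highest there (5.43 FPKM) and MSLN next highest (10.6 FPKM). KRT8 reached 0.61 FPKM at most. The part of these cell types in the GJB2 values was not tested.

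PANX1 (GeneID 102174365) stood at 6.95, 7.65 and 5.65 FPKM for Tibetan 1, 2 and 3 against 7.31, 13.03 and 8.71 FPKM for Jintang 1, 2 and 3. Jintang 2 was the one ovary that stood apart, and Jintang 1 lay below Tibetan 2. The means were 6.75 ± 1.015 and 9.68 ± 2.98 FPKM (SD, n = 3 each), a log2 difference of 0.44 (SE 0.30, 95% interval -0.25 to 1.12, limma adjusted p = 0.758). Without Jintang 2 the difference was 0.22.

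Ratios between members within a library do not depend on how libraries are scaled. These ratios were added after the values were seen. Of all single genes tested, 9.9% had no overlap between the breeds. Of the 15 pairs of members, 1 ratio did not overlap, that of PANX1 to GJC1. It was 0.601, 0.646 and 0.581 in Tibetan 1, 2 and 3 and 0.735, 1.24 and 0.769 in Jintang 1, 2 and 3. An exact permutation test over the goats, two-sided, gave p = 0.10, the smallest that 3 against 3 allows. Any pair without overlap gets this p, so the test adds nothing to the lack of overlap. After Benjamini-Hochberg adjustment over the 15 pairs the p was 0.75. The ratio of GJA1 to GJA4 was 0.726 in Tibetan 1, the one ovary in which GJA4 exceeded GJA1, and between 2.17 and 3.38 in the other 5.

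Taking all 15 connexin genes of the tables together, the connexin total was 209, 216 and 610.5 FPKM in Tibetan 1, 2 and 3 and 504, 266 and 338 FPKM for Jintang 1, 2 and 3. GJA1 and GJA4 made up between 70.7% of it, in Jintang 2, and 95.8%, in Tibetan 3. GJA1 alone made up 35.8% in Tibetan 1 and 48.4% to 71.2% elsewhere, and GJA4 made up 49.4% in Tibetan 1 and 20.6% to 26.3% elsewhere. GJA5 supplied 22.7% of the total in Jintang 2, against 1.43% to 7.91% in the other 5 ovaries.

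**Figure D4:**
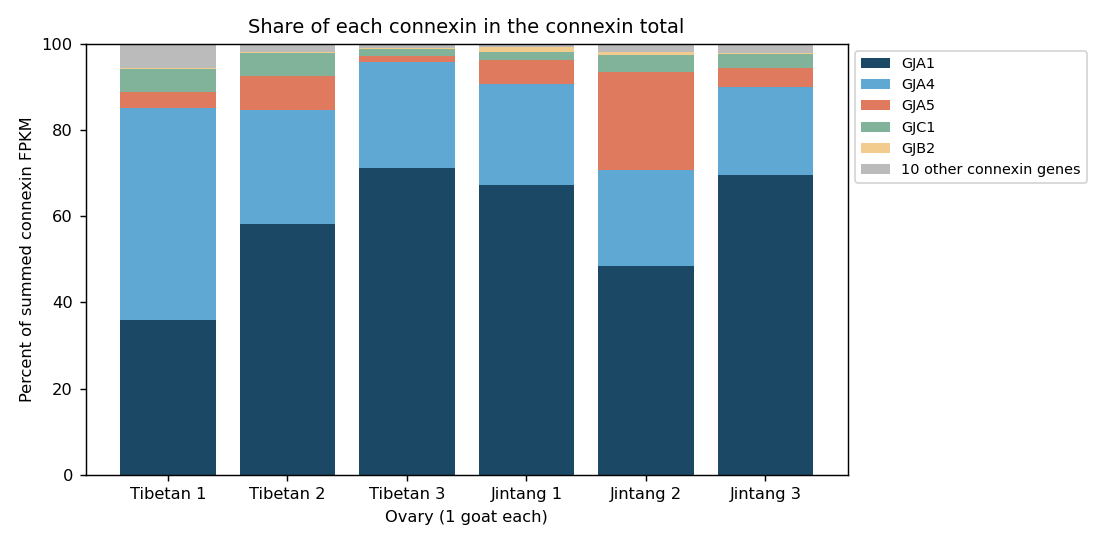
Share of each connexin in the summed connexin FPKM of each ovary, in percent, with the 10 connexin genes outside the chosen 5 in grey. GJA4 takes 49.4% in Tibetan 1, and GJA5 takes 22.7% in Jintang 2.

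The 10 other connexin genes summed to 3.86 to 11.7 FPKM per ovary, or 0.788% to 5.61% of the connexin total. GJA3, known as a lens connexin, was the highest of them. It stood at 8.31, 1.11 and 1.59 FPKM (Tibetan) and 1.76, 1.30 and 3.47 FPKM (Jintang), highest in Tibetan 1 (log2 difference -0.28, limma adjusted p = 0.914). The pannexin PANX2 stood at 1.55, 0.56 and 3.46 FPKM and 2.60, 5.02 and 1.04 FPKM (log2 difference 0.44, limma adjusted p = 0.846). Of the 12 other family genes 4 passed the filter, and 0 of the 4 had an unadjusted p under 0.05.

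In the goat genome GJB2 lies between GJA3 and GJB6, with no other coding gene between them in the RefSeq gene table (assembly ARS1.2). GJB2 was highest in Jintang 1 and GJA3 in Tibetan 1, while GJB6 reached 0.10 FPKM at most.

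Between the breeds, 0 of the 6 members passed the limma test over all genes, and the adjusted p ran from 0.743 (GJA5) to 0.961 (GJC1). The share of all 13067 genes that passed was 0%, with 0 higher and 0 lower in Jintang ovaries, and 806 genes had an unadjusted p under 0.05. That number was 325 without Tibetan 1, 345 without Jintang 1, 531 without Jintang 2 and 1861 without Jintang 3. Without Jintang 3, 12 genes passed, all higher, and none of the members was among them. At an unadjusted p under 0.05 there was 1 member of 6, GJA5, where 6.17% of all genes met that mark (2.82% higher and 3.35% lower). The breeds overlapped in all 6 members, and 9.9% of all genes had no overlap (3.2% higher and 6.7% lower in Jintang ovaries). Differences were positive in 4 members and negative in 2, with a median of 0.44, against 41% positive and a median of -0.10 over all genes tested. Intervals were wide, so a lack of a call does not show that the breeds are alike. That of GJA1 ran from -1.05 to 1.93 and that of GJA4 from -1.25 to 0.70.

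**Figure D5:**
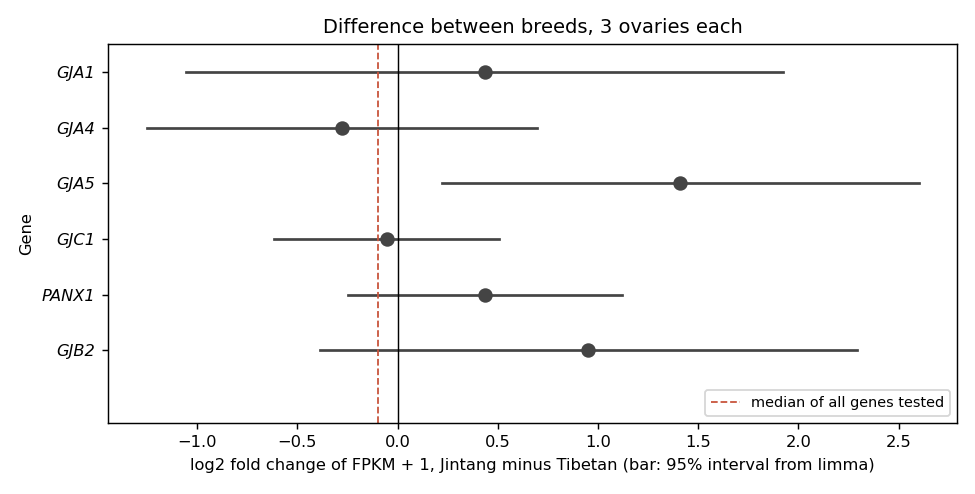
Difference between breeds on the log2(FPKM + 1) scale for the 6 genes, as point and 95% interval from limma, with the median of all genes tested (-0.10) as a dashed line. The interval of GJA5 (0.22 to 2.60) is the one that leaves out 0, before adjustment over all genes.

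Proteins that bind, anchor or phosphorylate connexins showed no call. All 19 listed genes were tested, 0 passed in either direction, 0 had an unadjusted p under 0.05, and 7 differences were positive and 12 negative (median -0.12). The smallest p values were those of CDH2, the cadherin of granulosa cells among others, at 17.3 ± 15.3 and 40.1 ± 23.6 FPKM, CCN3 (listed as NOV), a matricellular protein, at 11.5 ± 2.45 and 7.02 ± 3.28 FPKM, and the kinase gene MAPK7 at 32.3 ± 12.7 and 23.2 ± 3.07 FPKM. CDH2 was highest in Jintang 1 (63.9 FPKM) and lowest in Tibetan 1 (4.01 FPKM), the ovary with the least GJA1. Tibetan 3, with the most GJA1, had the next lowest CDH2 (13.8 FPKM), and the ratio of GJA1 to CDH2 ran from 3.71 to 31.5. TJP1, the junction scaffold that binds GJA1, stayed between 32.4 and 41.5 FPKM in all 6 ovaries, and it is named after its values were seen.

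Genes that make, sense or break down the cyclic nucleotides that pass through follicle gap junctions were found for 13 of 15 entries, and 12 were tested. None passed, 8 differences were positive and 4 negative, and the median was 0.09. NPR2, the receptor that makes cyclic GMP in granulosa cells, had an unadjusted p of 0.0388, at 76.7, 42.9 and 30.8 FPKM in Tibetan and 21.1, 13.3 and 35.03 FPKM in Jintang ovaries. Jintang 3 lay above Tibetan 3, so the breeds overlapped (log2 difference -1.08, SE 0.44, limma adjusted p = 0.743). Without Tibetan 1, Tibetan 2, Jintang 1 or Jintang 2 its unadjusted p was no longer under 0.05. PDE5A, which breaks down cyclic GMP, averaged 7.58 ± 2.39 and 12.4 ± 2.92 FPKM. ADCY3, an adenylate cyclase present in oocytes, averaged 27.4 ± 5.39 and 18.6 ± 4.77 FPKM. Both also had an adjusted p of 0.743 in limma.

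Receptors for ATP and adenosine and the enzymes that break ATP down outside the cell were matched for all 15 entries, and 11 were tested. None passed, and 3 were higher in Jintang ovaries at an unadjusted p under 0.05, where 2.82% of all genes were. Of the 11 differences 8 were positive (median 0.74), against 41% positive and a median of -0.10 over all genes tested. In 2 of the 11 the breeds did not overlap, both higher in Jintang ovaries, as in 3.2% of all genes. P2RY6, a receptor for uridine nucleotides, stood at 1.05, 1.23 and 1.44 FPKM (Tibetan) and 4.57, 12.8 and 1.81 FPKM (Jintang), without overlap (log2 difference 1.43, SE 0.54, limma adjusted p = 0.743). NT5E, which makes adenosine from AMP, stood at 13.4, 50.3 and 57.1 FPKM and 125, 85.8 and 57.4 FPKM, where the gap between Jintang 3 and Tibetan 3 was narrow. ENTPD1, which breaks down ATP and ADP, averaged 1.90 ± 1.30 and 4.67 ± 1.495 FPKM. With Tibetan 1, Jintang 1 or Jintang 2 left out, none of the 3 kept an unadjusted limma p under 0.05. Without Tibetan 1 the log2 difference was 0.66 for NT5E (1.30 with all libraries) and 0.68 for ENTPD1 (1.04 with all), and without Jintang 2 it was 0.82 for P2RY6. P2RY6 also lost that p without Tibetan 2, and ENTPD1 without Tibetan 3.

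Macrophages and endothelium also make several of these purinergic genes. The 6 macrophage markers summed to 40.0 to 131 FPKM in Tibetan and to 506, 77.6 and 135 FPKM in Jintang 1, 2 and 3, led by CD68, a lysosomal protein (9.83 to 233 FPKM), AIF1 (7.43 to 75.2 FPKM) and CSF1R, the macrophage growth factor receptor (9.04 to 62.05 FPKM). All 6 markers were highest in Jintang 1, where ENTPD1 was highest and P2RY6 next highest. In Jintang 2, where P2RY6 was highest, CD68 was at its lowest, while MRC1 (14.02 FPKM) and MSR1 (12.4 FPKM) were at their next highest. Lymphocyte markers summed to 15.8 to 58.4 FPKM and 16.1 to 71.8 FPKM, led by the T cell receptor subunit CD3E (5.89 to 27.5 FPKM). Their part in these values was not tested.

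For each member the genes of most similar pattern were found by the root mean square difference, over the 6 libraries, between log2(FPKM + 1) values centred on each gene's mean. For each, 9686 genes (9687 for GJB2) with a symbol and a mean of at least 5 FPKM were compared, so that some small differences are to be met. For GJC1 the nearest were N4BP1 (0.0362), CASC4 (0.0490) and SLBP (0.0527). PANX1 was nearest to TMEM245 (0.0880), FDX1L (0.106) and DTD2 (0.107). For GJA4 they were GGT5 (0.128), PKDCC (0.137) and ZYX (0.141), of which ZYX, a focal adhesion protein, stood at 199, 92.4 and 214 FPKM (Tibetan) and 174, 97.6 and 120 FPKM (Jintang). GJB2 was nearest to AMIGO2 (0.147), SRD5A1 (0.177), a steroid reductase gene, and UHRF1BP1L (0.178). This measure is not divided by a gene's own spread, so it cannot rank the members by closeness of match. Larger differences were found for the nearest genes of GJA5 and GJA1, the members with the largest SDs of log2(FPKM + 1). Those of GJA5 were TBC1D1 (0.253), PROCR (0.253), the endothelial protein C receptor, and RBBP8 (0.294). Those of GJA1 were LPL (0.262), the lipoprotein lipase gene, FAM198A (0.279) and C2 (0.287), a complement component.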

How the data were processed

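Ovarian RNA of 6 goats, 1 library per goat, was, per the labels' protocols, taken with TRIzol and prepared with an NEBNext kit. The authors deposited 1 table of FPKM values per goat, with 17504 genes. Tools named in the submitters' processing notes, with no role, are TopHat2 (2.0.10), RSEM (1.2.0) and Bowtie2 (2.1.0). Not given in the sources used here are the genome build, annotation, strand and read length, and coordinates are left out. A table of the whole series held the same 6 columns and was not used.

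Symbols came from a RefSeq gene table (assembly ARS1.2): 16457 IDs matched by GeneID, 9 by transcript accession and 1038 kept their ID. All 6 members matched by GeneID. CCN3, GUCY1A1 and GUCY1B1 were found under older names, and 3BHSD was taken for HSD3B1.

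The 13067 genes reaching 1 FPKM in 3 or more libraries were tested with limma 3.58.1 in R 4.3.3 (lmFit and trended eBayes) on log2(FPKM + 1), breed as the only term, two-sided, with Benjamini-Hochberg adjustment over all genes and a threshold of 0.05. The procedure was tested on simulated data. Figures were drawn with matplotlib 3.10.9. The members and lists were chosen with earlier results of these data known. Named were the members, other family genes with a mean of at least 1 FPKM and the 3 genes of each pathway list with the smallest p. Also named were the 3 highest markers of most lists and the 3 genes of most similar pattern per member. Other markers were named after their values were seen. The lists of theca cells, ciliated epithelium and erythrocytes were matched for 4 of 5, 3 of 5 and 2 of 6 entries, and summed to 99.05 to 10297, 0.15 to 5.28 and 0.08 to 0.67 FPKM. Some genes of the family and of the purinergic list are not reported here, and 1 was left out of the counts of the latter. No label gives a batch.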

Additional observations from a re-analysis of the deposited data

How the results depend on the processing

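The alternatives were a pseudocount of 0.1, no filter on low values, median-ratio and TPM scaling, the replicate number as a block, and leaving out each library. No member passed the limma threshold under any of them. GJA5, GJB2 and PANX1 kept a positive difference wherever they were tested. The filter dropped GJB2 without Tibetan 3, Jintang 1 or Jintang 2, the libraries where it reached 1 FPKM. Its kept sign and range therefore do not cover the loss of a high library. The sign turned for GJA1 without Tibetan 1 (-0.11), for GJA4 without Tibetan 3 (0.042), for GJC1 with median-ratio scaling (0.064) and for GJA3 without Tibetan 1 (0.38), and the cause was not tested. With single libraries left out, differences ran from -0.11 to 1.15 for GJA1, -0.65 to 0.042 for GJA4, 0.90 to 1.88 for GJA5, 0.75 to 1.57 for GJB2 (3 of 6 cases), -0.14 to -0.0053 for GJC1, 0.22 to 0.60 for PANX1 and -0.69 to 0.38 for GJA3. Over all genes, 0 to 12 were called higher with a library left out (12 without Jintang 3) and 0 lower. Genes at an unadjusted p under 0.05, 806 in all, ranged from 325 (without Tibetan 1) to 1861 (without Jintang 3).

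With the replicate block the differences were as before, at 1.41 for GJA5 (unadjusted p = 0.00705, limma adjusted p = 0.952), and 0 genes passed. The labels state no link between goats with the same number beyond the number. The correlations of their deviations from the breed mean, across genes, were -0.018, -0.21 and -0.47 for numbers 1, 2 and 3. For goats with different numbers they ran from -0.34 to 0.45. Deviations within a breed sum to 0, so these values depend on each other and cannot show whether goats are paired. Absolute depth is unknown, so the counting error of GJB2 and other low genes cannot be given.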
